A study of Mus musculus with 12 samples.

Results

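Pax6 and 5 genes that lie around it on mouse chromosome 2 were followed in RNA-seq of the embryonic cortex: Paupar, Elp4, Immp1l, Dnajc24 and Rcn1. They are 6 of the 48709 gene identifiers counted, were chosen by name and position, and all 6 were among the 16511 genes with enough reads to be tested. The 12 libraries came from cortex of C57BL/6J embryos at E15.5: 4 from a conditional knockout (cKO) of BAF155, 4 with the label Pax6 cKO and 4 controls. Smarcc1 encodes BAF155, which is part of the core of BAF, a complex that remodels chromatin. The labels do not state the floxed alleles, the deleted exons, the Cre driver, the genotype of the controls or whether each library is from its own embryo. The p-values therefore reflect only how far these libraries spread, and that spread may be technical.

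Pax6 encodes a paired-domain and homeodomain transcription factor. In radial glia, stem cells of the developing cortex, it promotes the production of cortical neurons and limits genes of the ventral forebrain. The locus is rich in distant enhancers, several of which lie in introns of the neighbouring gene Elp4, and the noncoding RNA Paupar is transcribed just upstream of Pax6 from the opposite strand. Paupar is bound to chromatin, and in cultured mouse neural cells it has been reported to affect Pax6 and to act together with the PAX6 protein at other genes. The flanking genes are broadly expressed: Elp4 encodes an accessory subunit of Elongator, a complex that modifies transfer RNA, and Immp1l a catalytic subunit of the peptidase of the mitochondrial inner membrane. Dnajc24 encodes a J-domain protein needed to make diphthamide, a modified residue of translation elongation factor 2, and Rcn1 a calcium-binding protein of the endoplasmic reticulum.

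All coordinates are on chromosome 2 of mm10, with gene models from GENCODE. Pax6 (ENSMUSG00000027168, protein-coding, plus strand) spans chr2:105668900-105697364. Paupar (ENSMUSG00000102424, minus strand) is a long intergenic noncoding RNA of a single exon of 3482 bases at chr2:105657862-105661343, and its start lies at -7.56 kb relative to the Pax6 start. Elp4 (ENSMUSG00000027167, minus strand, chr2:105701027-105904564) and Immp1l (ENSMUSG00000042670, plus strand, chr2:105904638-105965558) follow downstream and start back to back, with 73 bases between them. Dnajc24 (ENSMUSG00000027166, minus strand) lies beyond them at chr2:105966709-106003549. Rcn1 (ENSMUSG00000005973, minus strand) lies on the other side at chr2:105386291-105399319, with its start at -269.58 kb. The library kit does not mark strand, but no exon of another gene overlaps the exons of Pax6, Paupar, Elp4, Immp1l or Rcn1. Introns of other genes were not part of this check. Dnajc24 shares 84 exon bases, 6.14% of its exon length, with the pseudogene Dcdc5 on the opposite strand, so reads there cannot be told apart.

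Start regions of the gene that changed most among the protein-coding members and of the back-to-back pair whose members differed are shown from RefSeq (GRCm38.p6, plus strand); 4 of the 6 genes had an entry. Capitals mark TGACGTCA, the consensus of the cAMP response element, and CCAAT on either strand (ATTGG on the strand shown), none of them overlapping. The Pax6 stretch is the 250 bases before the more upstream of 2 RefSeq starts, chr2:105668646-105668895, and the second stretch is the whole 73-base interval between Elp4 and Immp1l, chr2:105904565-105904637.
Pax6 upstream start: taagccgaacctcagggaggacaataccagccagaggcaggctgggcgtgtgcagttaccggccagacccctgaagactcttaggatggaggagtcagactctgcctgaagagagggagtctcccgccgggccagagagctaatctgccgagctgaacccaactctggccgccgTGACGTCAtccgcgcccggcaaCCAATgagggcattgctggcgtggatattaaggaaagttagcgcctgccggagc
Elp4-Immp1l gap: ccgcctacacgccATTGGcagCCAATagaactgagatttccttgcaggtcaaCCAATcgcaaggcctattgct

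The Pax6 stretch held 1 CCAAT, a motif found in 33.8% of 32851 RefSeq promoter windows of 250 bases, and 1 TGACGTCA, found in 1.55% of them. The interval between Elp4 and Immp1l held 3 CCAAT, and 13.8% of windows of 73 bases held at least 1. It held 0 TGACGTCA, which 0.925% of those windows held. A palindromic homeodomain site, TAAT followed 3 bases on by its reverse complement, was also searched and had 0 matches in either stretch, against 0.463% of the 250-base and 0.0944% of the 73-base windows. These are matches of letters only.

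Libraries held 15.2 to 32.05 M counted reads. Levels are counts per M reads of TMM-scaled library size (CPM), where TMM is edgeR's scaling of library totals. Log2 fold changes, their standard errors (SE) and Benjamini-Hochberg adjusted p-values come from edgeR's quasi-likelihood test over all 16511 genes, and a gene was called at an adjusted p under 0.05. Smarcc1 averaged 127 ± 10.8 CPM in BAF155 cKO, 186 ± 6.71 in the libraries labelled Pax6 cKO and 303 ± 68.7 in control (SD, n = 4 each). Against control its log2 fold change was -1.25 in BAF155 cKO (adjusted p = 1.64e-05) and -0.71 in the libraries labelled Pax6 cKO (adjusted p = 0.00128), and it was lower in every library of both. By Xist and Y-linked reads, the 4 BAF155 cKO libraries were female, the 4 labelled Pax6 cKO were male, and controls 1 and 2 were male and controls 3 and 4 female. File names put all controls in lane 8, BAF155 cKO 3 and 4 in lane 3 and the other 6 libraries in lane 1, so lane and group cannot be told apart for the control, nor sex and group between BAF155 cKO and the libraries labelled Pax6 cKO. The forebrain genes were detected in all groups, with sums of 519 to 763 CPM in BAF155 cKO, 579 to 648 CPM in the libraries labelled Pax6 cKO and 681 to 1050 CPM in control.

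Pax6 reads were more abundant in BAF155 cKO and in the libraries labelled Pax6 cKO than in control. Pax6 was measured at 313, 369, 273 and 301 CPM in BAF155 cKO, at 380, 399, 384 and 392 CPM in libraries labelled Pax6 cKO, and at 82.0, 118, 125 and 116 CPM in control. All 8 libraries with a cKO label lay above every control library, and those labelled Pax6 cKO were the highest and the closest to each other. The level was 2.85 times that of control in BAF155 cKO (95% interval 2.42 to 3.37; log2 fold change 1.51, SE 0.12, adjusted p = 9.98e-07, edgeR's quasi-likelihood test). It was 3.53 times that of control in the libraries labelled Pax6 cKO (2.99 to 4.18; log2 fold change 1.82, SE 0.12, adjusted p = 9.46e-08, edgeR's quasi-likelihood test). For the libraries labelled Pax6 cKO, higher reads over the whole gene neither bear out nor contradict the label, because the deleted exons are not stated. Counts cover the whole gene and may include reads outside the deleted part, so they check nothing about how much intact transcript or protein was left.

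Paupar, the noncoding neighbour upstream, rose more than Pax6 itself. It had 111, 142, 60 and 48 reads in BAF155 cKO, which is 4.31, 5.07, 3.81 and 3.06 CPM. It had 138, 111, 150 and 115 reads in the libraries labelled Pax6 cKO, or 4.87, 4.51, 4.57 and 5.02 CPM. In control it had 15, 7, 14 and 13 reads, or 0.496, 0.332, 0.677 and 0.621 CPM. The lowest library with a cKO label was thus well above the highest control, and the control values rest on few reads. The level was 7.70 times that of control in BAF155 cKO (95% interval 5.73 to 10.4; log2 fold change 2.95, SE 0.22, adjusted p = 3.72e-07, edgeR's quasi-likelihood test). It was 8.90 times that of control in the libraries labelled Pax6 cKO (6.65 to 11.9; log2 fold change 3.15, SE 0.21, adjusted p = 9.51e-08, edgeR's quasi-likelihood test). In BAF155 cKO 99.9% of the genes tested had a smaller log2 fold change. Both comparisons share the same 4 controls.

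**Figure D1:**
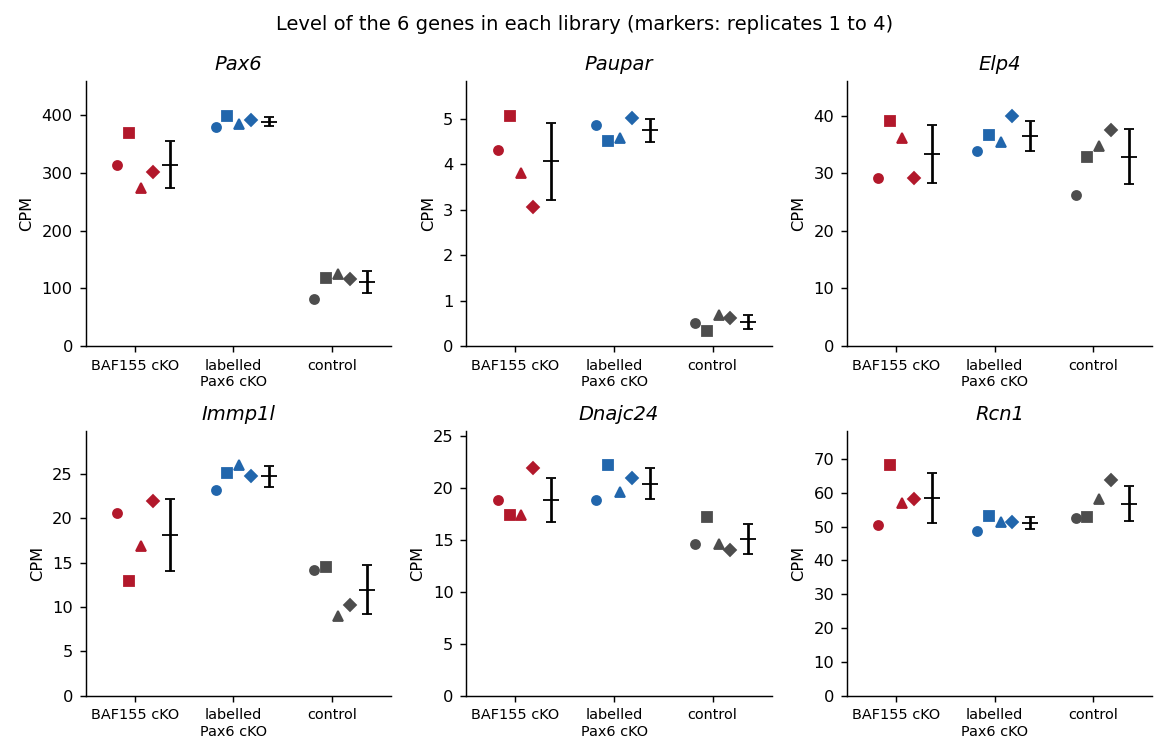
CPM (y axis, from 0) of the 6 genes in each library, by group (x axis); symbols are replicates 1 to 4, and bars give the mean ± SD (n = 4). Pax6 and Paupar are higher in every BAF155 cKO library and every library labelled Pax6 cKO than in any control library, while Elp4 and Rcn1 overlap between groups.

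The number of Paupar reads per 100 Pax6 reads, a ratio taken within each library and so free of library scaling, was also higher in both groups with a cKO label. It was 1.38, 1.37, 1.39 and 1.02 in BAF155 cKO, 1.28, 1.13, 1.19 and 1.28 in the libraries labelled Pax6 cKO, and 0.605, 0.281, 0.543 and 0.535 in control. No library with a cKO label reached down to the control range, and both cKO-labelled groups overlapped each other. The geometric mean ratio was 2.71 times that of control in BAF155 cKO and 2.59 times in the libraries labelled Pax6 cKO, each with an exact permutation p = 0.0286 (two-sided), the smallest that 4 against 4 libraries allow. Between BAF155 cKO and the libraries labelled Pax6 cKO the ratio differed by 1.05 times (exact permutation p = 0.657). The lowest of the 12 ratios, in control replicate 2, rests on 7 Paupar reads and has a 95% interval of 0.113 to 0.58, which covers counting error only.

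Pax6os1, an annotated antisense RNA that begins inside Pax6 and runs upstream past Paupar, which lies in one of its introns on the same strand, was also higher. Its level was 2.02, 1.93, 1.20 and 1.21 CPM in BAF155 cKO, 1.55, 1.71, 2.22 and 2.05 CPM in libraries labelled Pax6 cKO, and 0.793, 0.332, 0.774 and 0.525 CPM in control. Neither range overlapped that of control, although the control values rest on 7 to 24 reads. Without strand marks, reads of unspliced Pax6 may count as Pax6os1, and reads of unspliced Pax6os1 as Paupar. The part of such reads was not tested. The log2 fold change was 1.40 in BAF155 cKO (SE 0.28, adjusted p = 0.00497) and 1.61 in the libraries labelled Pax6 cKO (SE 0.27, adjusted p = 0.000739, edgeR's quasi-likelihood test for both).

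Immp1l, the mitochondrial peptidase gene, rose as well, by less. It was measured at 20.6, 13, 16.9 and 22.0 CPM in BAF155 cKO, at 23.2, 25.1, 26.0 and 24.8 CPM in libraries labelled Pax6 cKO, and at 14.2, 14.5, 8.99 and 10.2 CPM in control. The libraries labelled Pax6 cKO lay above all others, whereas BAF155 cKO replicate 2 lay within the control range. The log2 fold change was 0.59 in BAF155 cKO (SE 0.17, 1.5 times, adjusted p = 0.033) and 1.05 in the libraries labelled Pax6 cKO (SE 0.17, 2.07 times, adjusted p = 0.000439, edgeR's quasi-likelihood test for both). The call in BAF155 cKO was lost, at log2 fold changes of 0.51, 0.48, 0.47 and 0.52, without BAF155 cKO replicate 1 or 4 or control replicate 3 or 4 in turn, with adjusted p-values of 0.0976, 0.116, 0.101 and 0.0942 (edgeR's quasi-likelihood test).

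The share of reads from the mitochondrial genome followed Immp1l in BAF155 cKO and control but not in the libraries labelled Pax6 cKO. That share was 2.92, 1.57, 2.09 and 3.27% in BAF155 cKO, 2.91, 2.04, 2.83 and 2.68% in the libraries labelled Pax6 cKO, and 2.27, 2.18, 1.21 and 1.38% in control. Within BAF155 cKO the order of the 4 libraries by mitochondrial share was the order by Immp1l. Among the libraries labelled Pax6 cKO the one with the largest share had the lowest Immp1l level, 23.2 CPM, and the one with the smallest share, 2.04%, had 25.1 CPM, more than control replicate 1 at 14.2 CPM and a share of 2.27%. In control, the 2 male libraries with the larger shares averaged 14.3 CPM of Immp1l, and the 2 female libraries with the smaller shares 9.61 CPM. Against the 2 controls of its own sex, Immp1l had a log2 fold change of 0.89 in BAF155 cKO (adjusted p = 0.00398) and of 0.79 in the libraries labelled Pax6 cKO (adjusted p = 0.00974, edgeR's quasi-likelihood test for both). The part of the mitochondrial share in the change of Immp1l was not tested.

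**Figure D2:**
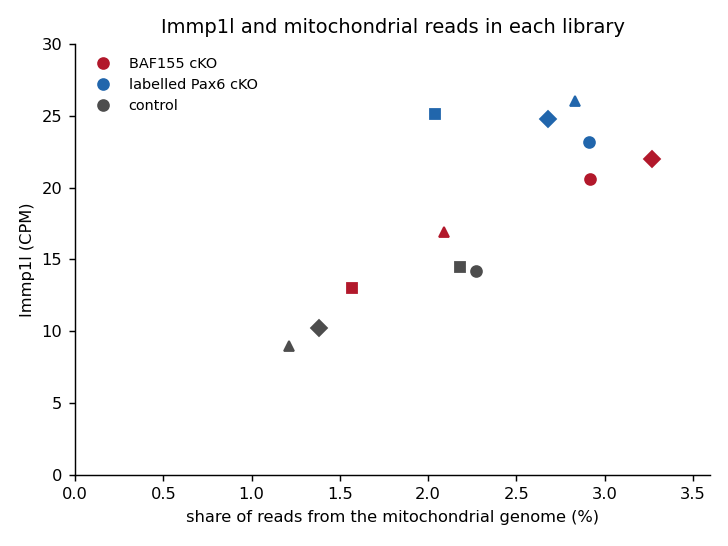
Immp1l level (y axis, CPM) against the share of reads from the mitochondrial genome (x axis, %) in each of the 12 libraries, with symbols for replicates 1 to 4. BAF155 cKO replicate 2, with the lowest share of its group at 1.57%, also has the lowest Immp1l level of its group at 13 CPM, and controls 3 and 4 are lowest on both axes.

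Elp4, which starts 73 bases from Immp1l in the other direction, was not called. Its level was 29.1, 39.0, 36.1 and 29.2 CPM in BAF155 cKO, 33.9, 36.6, 35.5 and 40 CPM in libraries labelled Pax6 cKO, and 26.3, 32.9, 34.7 and 37.5 CPM in control. The 3 groups overlapped. The log2 fold change was 0.02 in BAF155 cKO (95% interval -0.21 to 0.26, adjusted p = 0.9) and 0.15 in the libraries labelled Pax6 cKO (-0.08 to 0.39, adjusted p = 0.321, edgeR's quasi-likelihood test for both). The BAF155 cKO value took the opposite sign, at -0.13, against the 2 female controls alone.

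Within libraries, Elp4 reads per 100 Immp1l reads were 142, 301, 214 and 133 in BAF155 cKO, 146, 146, 137 and 161 in the libraries labelled Pax6 cKO, and 185, 227, 386 and 367 in control; this ratio was chosen after the counts had been seen. The libraries labelled Pax6 cKO all lay below the controls, and BAF155 cKO spread over both. The geometric mean ratio was 0.671 times that of control in BAF155 cKO (exact permutation p = 0.171) and 0.53 times in the libraries labelled Pax6 cKO (exact permutation p = 0.0286, the smallest possible). Against the 2 controls of the same sex alone the log2 difference was -1.01 in BAF155 cKO, compared with -0.58 against all 4, and -0.48 in the libraries labelled Pax6 cKO, compared with -0.92.

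**Figure D3:**
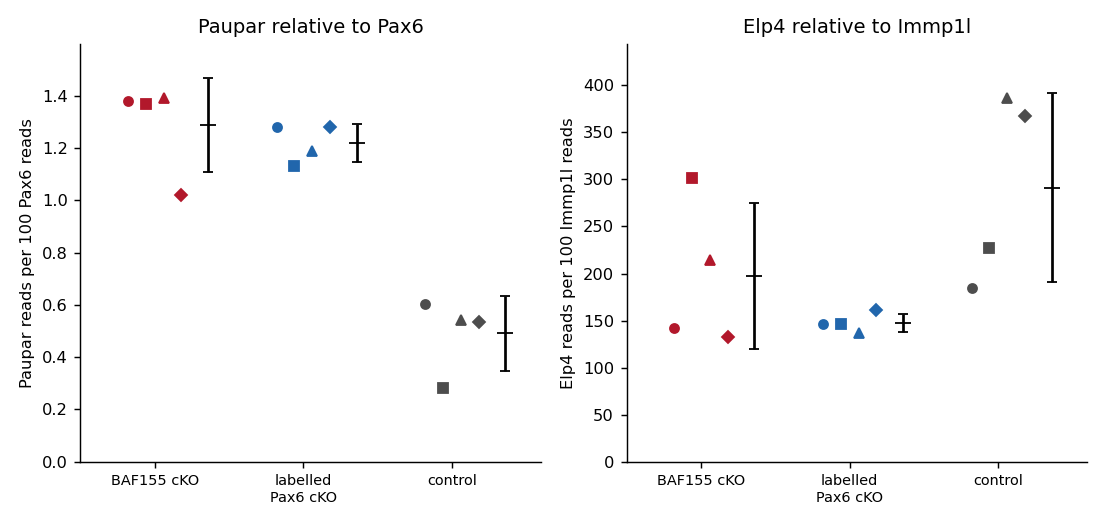
Reads of Paupar per 100 reads of Pax6 (left) and of Elp4 per 100 reads of Immp1l (right) in each library, by group; symbols are replicates 1 to 4 and bars give the mean ± SD (n = 4). The Paupar ratio lies between 1.02 and 1.39 in BAF155 cKO and between 1.13 and 1.28 in the libraries labelled Pax6 cKO, above the 0.281 to 0.605 of control.

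Dnajc24, the diphthamide gene at the far end of the group, was called higher in the libraries labelled Pax6 cKO. Its level was measured at 18.9, 17.4, 17.4 and 21.9 CPM in BAF155 cKO, at 18.9, 22.2, 19.6 and 21.0 CPM in libraries labelled Pax6 cKO, and at 14.6, 17.2, 14.6 and 14 CPM in control. No library with a cKO label lay below a control library, though control replicate 2 came close to the lowest BAF155 cKO libraries. The call was made in the libraries labelled Pax6 cKO, with 0.44 on the log2 scale (SE 0.10, adjusted p = 0.00526, edgeR's quasi-likelihood test). In BAF155 cKO its log2 fold change of 0.32 (SE 0.10) had an adjusted p of 0.0500041 in edgeR's quasi-likelihood test, just outside the threshold, and it was the first gene not called, at rank 2247. The call in the libraries labelled Pax6 cKO was lost against the 2 male controls alone (log2 fold change 0.36, adjusted p = 0.0981, edgeR's quasi-likelihood test).

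Rcn1, on the other side of Pax6, was not called in either comparison with control. Its level was 50.5, 68.1, 57.0 and 58.2 CPM in BAF155 cKO, 48.6, 53.0, 51.3 and 51.2 CPM in libraries labelled Pax6 cKO, and 52.5, 52.8, 58.2 and 63.7 CPM in control. The groups overlapped. The log2 fold change was 0.04 in BAF155 cKO (95% interval -0.14 to 0.23, adjusted p = 0.768; -0.07 against the 2 female controls alone) and -0.15 in the libraries labelled Pax6 cKO (-0.34 to 0.03, adjusted p = 0.213, edgeR's quasi-likelihood test for both).

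Across the 6 genes, 3 were called higher in BAF155 cKO and 4 in the libraries labelled Pax6 cKO, and none lower. Over all genes tested, 6.04% were called higher in BAF155 cKO and 16.6% in the libraries labelled Pax6 cKO. The shares called lower were 7.56% and 18.9%, and those called in either direction 13.6% and 35.5%, in the same order. All BAF155 cKO libraries lay above all controls for 3 of the 6 genes, as for 6.47% of all genes, and all libraries labelled Pax6 cKO did so for 4, as for 17.2% of all genes. The genes were chosen with earlier results known for Pax6 and Paupar, so these counts are a description.

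**Figure D4:**
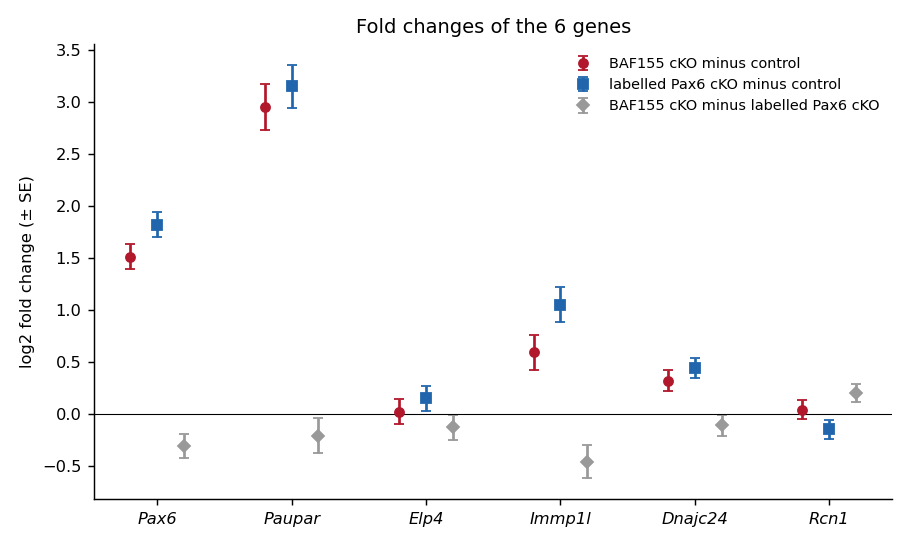
Log2 fold change (y axis, ± SE) of the 6 genes for BAF155 cKO minus control, for libraries labelled Pax6 cKO minus control, and for BAF155 cKO minus labelled Pax6 cKO. Paupar shows the largest values, 2.95 and 3.15 against control, and Elp4 and Rcn1 lie near 0.

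Set directly against each other, BAF155 cKO and the libraries labelled Pax6 cKO differed at none of the 6 genes after adjustment in edgeR's quasi-likelihood test, and none was called by DESeq2 or limma-voom, while 4.31% of all genes tested were called by edgeR. At an unadjusted p under 0.05, 2 of the 6 differed. Pax6 was lower in all 4 BAF155 cKO libraries, with a log2 fold change of -0.31 (95% interval -0.54 to -0.07, adjusted p = 0.152, edgeR's quasi-likelihood test). Immp1l was also lower in all 4, with -0.46 (-0.78 to -0.14, adjusted p = 0.123, edgeR's quasi-likelihood test). Over all genes, 7.83% had all BAF155 cKO libraries below all libraries labelled Pax6 cKO. Within lane 1 the Pax6 value was -0.18 (adjusted p = 0.48) and the Immp1l value -0.55 (adjusted p = 0.139, edgeR's quasi-likelihood test for both, 2 BAF155 cKO libraries). For Paupar the value was -0.21 (-0.54 to 0.13, adjusted p = 0.519, edgeR's quasi-likelihood test).

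Per kb of exon, the levels of the 6 genes can be ordered within a group. The length used was that of all annotated exons of a gene merged, from 955 bases for Immp1l to 11694 bases for Pax6. In BAF155 cKO they were 26.9 ± 3.45 CPM per kb for Pax6, 18.9 ± 4.23 for Immp1l, 18.3 ± 2.28 for Rcn1, 13.8 ± 1.54 for Dnajc24, 10 ± 1.5 for Elp4 and 1.17 ± 0.242 for Paupar (SD, n = 4). Those of the libraries labelled Pax6 cKO were 33.2 ± 0.747 for Pax6, 26.0 ± 1.22 for Immp1l, 16.0 ± 0.565 for Rcn1, 14.9 ± 1.07 for Dnajc24, 11 ± 0.774 for Elp4 and 1.36 ± 0.0701 for Paupar. In control they were 17.8 ± 1.66 for Rcn1, 12.5 ± 2.91 for Immp1l, 11 ± 1.05 for Dnajc24, 9.90 ± 1.44 for Elp4, 9.42 ± 1.64 for Pax6 and 0.153 ± 0.0440 for Paupar. Pax6 stood first in both cKO-labelled groups and next to last in control, where Immp1l, Dnajc24, Elp4 and Pax6 lay within the spread of their neighbours. That rank in control depends on the length used. In CPM, without division by length, Pax6 was the highest of the 6 in control, with a mean of 110 against 56.8 for Rcn1. In BAF155 cKO, Immp1l and Rcn1 lay within each other's spread. Paupar was lowest in all 3 groups.

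Within 1.5 Mb on either side of Pax6, 62 genes are annotated and 20 were tested. In BAF155 cKO 6 of the 20 were called higher and 1 lower, with a median log2 fold change of 0.20 against 0.01 over all genes. For the libraries labelled Pax6 cKO 9 were called higher and 3 lower, with a median of 0.32 against 0.02. Over all genes 6.04% were called higher and 7.56% lower in BAF155 cKO, and 16.6% higher and 18.9% lower in the libraries labelled Pax6 cKO. Of the 14 that are not among the 6 genes, 3 were higher and 1 lower in BAF155 cKO, and 5 were higher and 3 lower in the libraries labelled Pax6 cKO. The controls of the same sex alone were a comparison chosen after seeing the data. Against them the counts over the 20 were 9 higher and 1 lower in BAF155 cKO, where 25.1% of all genes were called in either direction. The counts were 6 higher and 2 lower in the libraries labelled Pax6 cKO, where 7.98% of all genes were called in either direction.

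Besides Pax6os1, 3 neighbours were called in both comparisons with control. Dcdc5, the pseudogene that shares exon bases with Dnajc24, averaged 2.17 ± 0.593 CPM in BAF155 cKO, 2.57 ± 0.157 CPM in the libraries labelled Pax6 cKO and 0.910 ± 0.440 CPM in control (SD, n = 4 each). Its log2 fold changes were 1.25 (adjusted p = 0.0158) and 1.49 (adjusted p = 0.00211, edgeR's quasi-likelihood test for both). Depdc7, with its start at -926 kb, was higher by 0.59 in BAF155 cKO (adjusted p = 0.0159) and 0.97 in the libraries labelled Pax6 cKO (adjusted p = 0.000194, edgeR's quasi-likelihood test for both). Qser1, whose product protects regulatory regions from DNA methylation in human cells, was lower by log2 fold changes of -0.45 (adjusted p = 0.0431) and -0.71 (adjusted p = 0.00168, edgeR's quasi-likelihood test for both).

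A further 4 neighbours were called in the libraries labelled Pax6 cKO. The translation initiation factor gene Eif3m was higher by 0.53 (adjusted p = 0.00235) and Mpped2, a phosphodiesterase gene, by 0.40 (adjusted p = 0.0195, edgeR's quasi-likelihood test for both). D430041D05Rik was lower, with -0.52 (adjusted p = 0.00217), and so was Tcp11l1, with -0.20 (adjusted p = 0.0295, edgeR's quasi-likelihood test for both). In BAF155 cKO their values were 0.24, 0.02, -0.28 and -0.13 in the order named, none called. Between BAF155 cKO and the libraries labelled Pax6 cKO their adjusted p-values ran from 0.0882 to 0.586 (edgeR's quasi-likelihood test). Wt1, the gene of a kidney transcription factor on the Rcn1 side, had too few reads to be tested, with means of 0.0724 CPM in BAF155 cKO, 0.12 CPM in the libraries labelled Pax6 cKO and 0.0602 CPM in control.

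**Figure D5:**
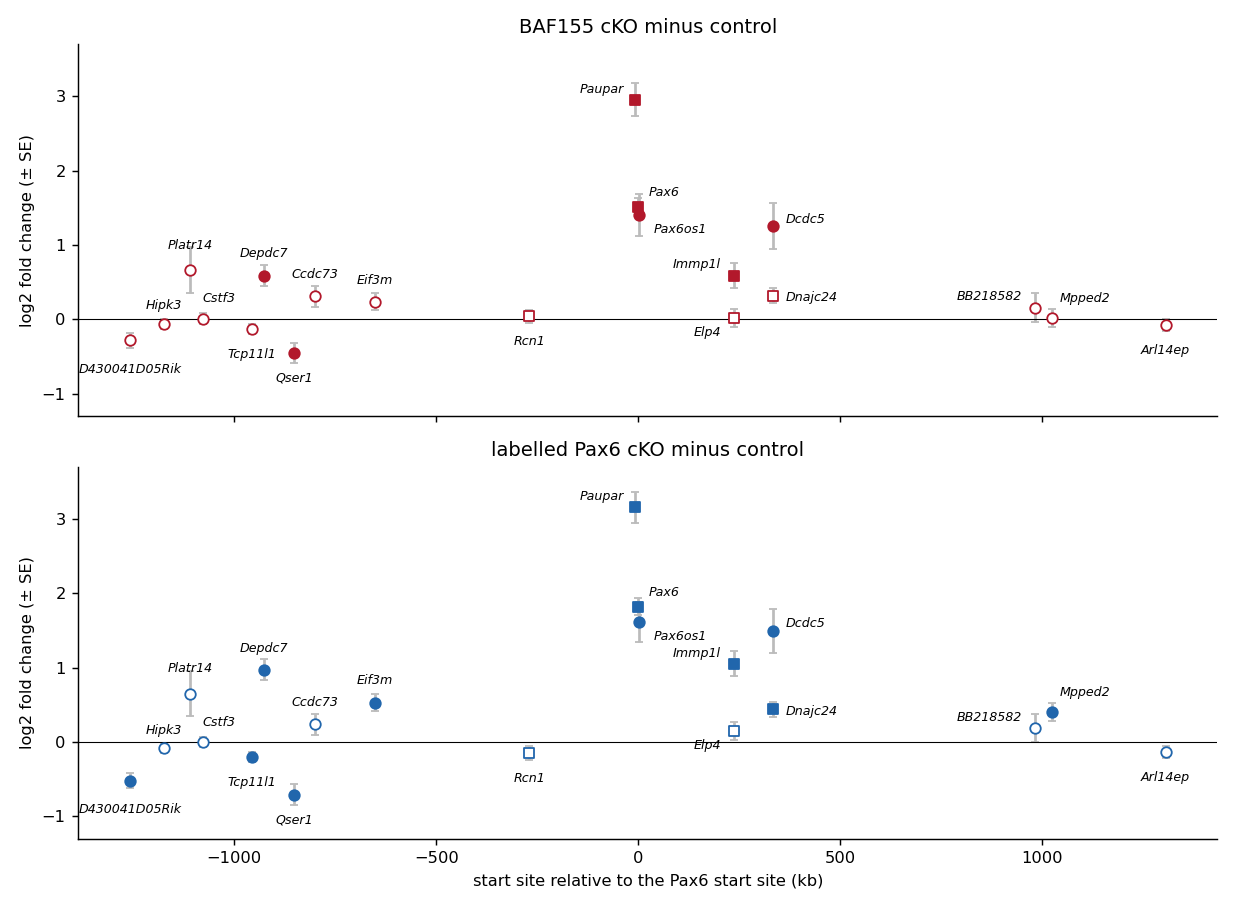
Log2 fold change (y axis, ± SE) of the 20 tested genes within 1.5 Mb of Pax6, by the distance of their start from the Pax6 start (x axis, kb), for BAF155 cKO minus control (top) and labelled Pax6 cKO minus control (bottom). Squares are the 6 genes and circles the other 14, filled where called; the largest values, for Paupar, Pax6, Pax6os1 and Dcdc5, all lie between -7.56 and 334.4 kb.

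Genes with a profile over the 12 libraries most like that of Pax6 were found by the root mean square difference of log2 CPM, each profile centred on its own mean, among 14314 genes. They were Wif1, a secreted Wnt inhibitor (0.252), Helt, a transcription factor gene of inhibitory neurons of the midbrain (0.264), the noncoding Sox2ot (0.279), Dlx1, a homeobox gene of ventral forebrain progenitors and interneurons (0.283), and Gm14204 (0.293), against a median of 0.841 over all candidates. Those most like Paupar were Wls, needed for Wnt secretion (0.531), Arid3c (0.559), Nmbr, a bombesin receptor gene (0.665), Crabp1, a retinoic acid binding protein gene (0.669), and Wif1 (0.688), against a median of 1.40. Dlx1 averaged 503 CPM in BAF155 cKO, 658 CPM in the libraries labelled Pax6 cKO and 245 CPM in control, and Wls 109, 156 and 31.9 CPM in the same order. The likeness covers all differences between these libraries, including lane and sex. Those most like Immp1l, named after their values had been seen, were Dnajc15, Znhit3, Ndufs4, Pfdn5 and Tmem256, with differences of 0.103 to 0.122 against a median of 0.537.

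Genes reported to depend on Pax6 in the cortex were lower while Pax6 reads were higher. Of 9 tested, 8 fell in BAF155 cKO, with a median log2 fold change of -1.33 against 0.01 over all genes. In the libraries labelled Pax6 cKO 8 fell and 1 rose, with a median of -2.23 against 0.02. Over all genes, 7.56% were called lower in BAF155 cKO and 18.9% in the libraries labelled Pax6 cKO. Rlbp1, a retinoid binding protein gene, averaged 10.4 ± 1.17 CPM in BAF155 cKO, 12.4 ± 0.880 CPM in the libraries labelled Pax6 cKO and 146 ± 11.3 CPM in control (SD, n = 4 each). Its log2 fold changes were -3.80 (adjusted p = 1.91e-12) and -3.55 (adjusted p = 3.69e-12, edgeR's quasi-likelihood test for both). Eomes, a marker of intermediate progenitors, fell to 63.8 ± 17.2 CPM in BAF155 cKO, against 247 ± 56.6 CPM in control (adjusted p = 3.80e-06, edgeR's quasi-likelihood test). Cdh4, a cadherin gene, fell to 59.7 ± 2.20 CPM in the libraries labelled Pax6 cKO, against 183 ± 16.9 CPM in control (adjusted p = 4.46e-08, edgeR's quasi-likelihood test). The riser was Fabp7, a fatty acid binding protein of radial glia, with 0.48 in the libraries labelled Pax6 cKO (adjusted p = 0.0116, edgeR's quasi-likelihood test). Against the controls of the same sex alone, 8 of the 9 fell in each comparison and none rose. Of all genes, 25.1% were called in either direction in BAF155 cKO and 7.98% in the libraries labelled Pax6 cKO against those controls. Called lower were 2472 of 17095 genes and 845 of 17239, in the same order.

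Ventral forebrain genes that Pax6 is reported to hold down were higher. Of 8 tested, 6 rose in BAF155 cKO (median log2 fold change 0.91) and 7 in the libraries labelled Pax6 cKO (median 0.96), and none fell. Over all genes, 6.04% and 16.6% were called higher, in the same order. Dlx1 had log2 fold changes of 1.03 (adjusted p = 9.77e-06) and 1.42 (adjusted p = 2.29e-07, edgeR's quasi-likelihood test for both). Olig2, a gene of ventral progenitors and oligodendrocyte precursors, rose by 0.94 in BAF155 cKO (adjusted p = 0.00174), and the interneuron gene Dlx5 by 1.36 in the libraries labelled Pax6 cKO (adjusted p = 5.39e-05, edgeR's quasi-likelihood test for both). Against the controls of the same sex alone, 6 of the 8 rose in each comparison. Of all genes, 25.1% were called in either direction in BAF155 cKO and 7.98% in the libraries labelled Pax6 cKO against those controls. Called higher were 1822 of 17095 genes and 530 of 17239, in the same order. Both lists were chosen with results of these libraries known and are not independent evidence of a direction.

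No reported upstream regulator of Pax6 was called higher in either comparison with control. Over all genes, 6.04% were called higher in BAF155 cKO and 16.6% in the libraries labelled Pax6 cKO, so none of 9 is near those shares. In BAF155 cKO edgeR's quasi-likelihood test called none of 9, limma-voom none and DESeq2 1, and 1 passed at an unadjusted p under 0.05; the median log2 fold change was -0.07. The most abundant, the homeobox gene Meis2 and the corepressor gene Trim28, had values of -0.20 (adjusted p = 0.305) and -0.37 (adjusted p = 0.0593, edgeR's quasi-likelihood test for both). In the libraries labelled Pax6 cKO 4 fell, where 18.9% of all genes were called lower, and none rose, with a median of -0.39. The repressor gene Rest had -0.44 (adjusted p = 0.00204) and the nuclear receptor gene Nr2f1 -0.53 (adjusted p = 0.0044, edgeR's quasi-likelihood test for both). The other 8 members of the Pax family were too low to test, with group means of at most 0.435 CPM.

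Partners of the flanking genes were read against the 13.6% of all genes called in BAF155 cKO and the 35.5% called in the libraries labelled Pax6 cKO. None of 6 other Elongator genes was called in BAF155 cKO by edgeR's quasi-likelihood test, DESeq2 or limma-voom, and none passed at an unadjusted p under 0.05; the most abundant, Elp2 and Elp3, both had -0.22. In the libraries labelled Pax6 cKO Elp2 fell by 0.28 (adjusted p = 0.0439, edgeR's quasi-likelihood test) and no other was called. Immp2l, the gene of the other catalytic subunit beside Immp1l, had -0.18 in BAF155 cKO (adjusted p = 0.544) and 0.28 in the libraries labelled Pax6 cKO (adjusted p = 0.26, edgeR's quasi-likelihood test for both). Of 7 other genes of the diphthamide pathway 1 was called in BAF155 cKO and 4 in the libraries labelled Pax6 cKO. Eef2, the factor that carries the residue, fell in both, by 0.49 in BAF155 cKO (adjusted p = 0.0293) and 0.53 in the libraries labelled Pax6 cKO (adjusted p = 0.00777, edgeR's quasi-likelihood test for both). In the libraries labelled Pax6 cKO Dph6 also fell, with -0.30 (adjusted p = 0.0334), and Dph3 and Dph7 rose, with 0.38 (adjusted p = 0.00473) and 0.23 (adjusted p = 0.0468, edgeR's quasi-likelihood test for all 3). Of 4 relatives of Rcn1, Rcn3 fell in BAF155 cKO by 0.46 (adjusted p = 0.029), and Rcn2 rose by 0.26 in the libraries labelled Pax6 cKO (adjusted p = 0.0236, edgeR's quasi-likelihood test for both).

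Radial glia, in which Pax6 is expressed in the cortex, had lower marker levels in both cKO-labelled groups. Of 12 markers tested, 5 fell in BAF155 cKO and none rose. In the libraries labelled Pax6 cKO 10 fell and Fabp7 rose. Over all genes, 7.56% were called lower in BAF155 cKO and 18.9% in the libraries labelled Pax6 cKO. Slc1a3, a glutamate transporter gene, had -1.01 (adjusted p = 1.49e-06) and Vim, an intermediate filament gene, -0.81 (adjusted p = 0.0089) in BAF155 cKO, edgeR's quasi-likelihood test for both. The intermediate filament gene Nes had -0.87 (adjusted p = 0.000236) and the transcription factor gene Gli3 -1.67 (adjusted p = 0.00043) in libraries labelled Pax6 cKO, edgeR's quasi-likelihood test for both. Against the controls of the same sex alone 8 fell in BAF155 cKO and 7 in the libraries labelled Pax6 cKO. Of all genes, 25.1% and 7.98% were called in either direction against those controls, in the same order. Called lower were 2472 of 17095 genes and 845 of 17239.

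The summed level of the 12 radial glia markers was 2550 to 2880 CPM in BAF155 cKO, 2710 to 2880 CPM in the libraries labelled Pax6 cKO and 3170 to 3400 CPM in control. Fabp7, which did not fall, was the largest part of the sum, with means of 914, 1190 and 856 CPM in the same order. The sum therefore shows less of a fall than most of the markers. Pax6 per 1000 CPM of that sum was 107 to 128 in BAF155 cKO, 136 to 143 in the libraries labelled Pax6 cKO and 25.9 to 36.6 in control. These ratios hold the Pax6 and marker differences together. In bulk tissue, fewer cells of a type and less RNA per cell cannot be told apart.

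Markers of other tissues and cell types were followed as well. The summed level of 7 eye field and retina genes was 0.0714 to 0.958 CPM in BAF155 cKO, with 3 genes at 0 in all its libraries, 0.325 to 0.579 CPM in the libraries labelled Pax6 cKO, with 2 at 0, and 0.290 to 0.955 CPM in control, with 1 at 0. The 6 thalamus genes summed to 129 to 162 CPM in BAF155 cKO, 138 to 141 CPM in the libraries labelled Pax6 cKO and 84.3 to 118 CPM in control, and none was at 0 throughout a group. Of these 6, 3 rose and Tcf7l2 fell in BAF155 cKO, and 2 rose and Tcf7l2 fell in the libraries labelled Pax6 cKO. Over all genes, 13.6% were called in either direction in BAF155 cKO and 35.5% in the libraries labelled Pax6 cKO. The 6 hypothalamus genes summed to 8.42 to 9.40 CPM in BAF155 cKO, 3.86 to 13.8 CPM in the libraries labelled Pax6 cKO and 1.79 to 17.4 CPM in control. Of 4 tested, 2 were called higher in BAF155 cKO and 1 in the libraries labelled Pax6 cKO, and none lower. Over all genes, 6.04% and 16.6% were called higher. The most abundant, Nkx2-1, had -0.65 in BAF155 cKO (adjusted p = 0.621, edgeR's quasi-likelihood test). Pomc was not called either, and Avp and Hmx2 had too few reads to be tested. Sim1, a transcription factor gene of the hypothalamus, averaged 2.55 ± 0.798 CPM in BAF155 cKO, 0.309 ± 0.0768 CPM in libraries labelled Pax6 cKO and 0.0486 ± 0.0405 CPM in control. It was called higher in both cKO-labelled groups (adjusted p = 1.05e-06 and 0.00619, edgeR's quasi-likelihood test). Otp, a homeobox gene of the hypothalamus, was called higher in BAF155 cKO, with 1.14 ± 0.786 CPM against 0.024 ± 0.0277 CPM in control (adjusted p = 0.00963, edgeR's quasi-likelihood test). Sim1 and Otp were near 0 in control and had enough reads to be tested mainly through the BAF155 cKO libraries. Their calls are therefore a description only. The 4 choroid plexus genes summed to 3.18 to 12.7 CPM in BAF155 cKO, 14.9 to 329 CPM in the libraries labelled Pax6 cKO and 11.6 to 28.5 CPM in control. Ttr, a thyroid hormone carrier gene, and Kcne2, a potassium channel subunit gene, were called higher in the libraries labelled Pax6 cKO than in control (adjusted p = 0.021 and 0.00799), and 3 of the 4 were called lower in BAF155 cKO than in the libraries labelled Pax6 cKO (edgeR's quasi-likelihood test). In that direct comparison 4.31% of all genes were called in either direction. Kcne2 averaged 0.347 CPM in control and 0.275 CPM in BAF155 cKO. It had enough reads to be tested mainly through the libraries labelled Pax6 cKO, so its calls are a description only. The part of the cell types in the Pax6 and Paupar levels was not tested.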

How the data were processed

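RNA was isolated from embryonic cortex with an RNeasy kit and made into TruSeq RNA v2 libraries, per the labels' protocols. The authors deposited raw counts per gene for each library, without normalization, on mm10, per the submitters' processing notes. Which aligner and counter were used is not given in the sources used here. Genes were matched to GENCODE models (48349 of 48709 identifiers).

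The fits used edgeR 4.0.16 in R 4.3.3 (filterByExpr, TMM, robust quasi-likelihood fit of all 12 libraries, 1 coefficient per group, Benjamini-Hochberg adjustment, threshold 0.05); the fit was tested on simulated data. CPM are given as mean ± SD over 4 libraries. Ratios within a library were compared by exact two-sided permutation tests on the log2 scale, with exact Poisson 95% intervals. Depth limits Paupar most.

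Alternatives were RLE, library totals alone, DESeq2 1.42.0, limma-voom (limma 3.58.1), no filter, 1 CPM in 4 libraries, fits of the 8 libraries in a comparison, a block for replicate number, same-sex controls, single lanes and each library left out. The members and the gene lists were chosen with earlier results of these data known. Per list, the genes named are up to 2 called ones per direction, by smallest adjusted p; where nothing was called, the 2 with most CPM are named. The called neighbours and the 5 profiles most like Pax6 and Paupar are named too. Lists for cortical projection neurons, microglia, endothelium, erythroid cells and meninges were also counted.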

Additional observations from a re-analysis of the deposited data

Results flagged for a closer look

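The number of Paupar reads per 100 Pax6 reads stood apart in 2 libraries. BAF155 cKO replicate 4 had 1.02, below the 1.37 to 1.39 of the other 3 libraries of its group, a gap of 0.953 of the group's range. Control replicate 2 had 0.281, below the 0.535 to 0.605 of the other 3 controls, a gap of 0.839 of the range. Both gaps are above Dixon's 95% limit of 0.829 for 4 samples. With 24 groups examined, chance alone would mark about 1 in 20. The 95% counting interval of BAF155 cKO replicate 4 was 0.75 to 1.35, below the values of the other 3. It overlapped the counting intervals of those 3, which were 1.13 to 1.66, 1.16 to 1.62 and 1.06 to 1.79. The interval of control replicate 2 was 0.113 to 0.58, which includes 2 of the other 3 control values.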

How the results depend on the processing

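Pax6 and Paupar kept their direction and their calls against control in every alternative tried, with log2 fold changes of 1.37 to 1.65 and 2.64 to 3.15 in BAF155 cKO, and of 1.81 to 1.96 and 3.14 to 3.46 in libraries labelled Pax6 cKO. Leaving out single libraries gave 1.39 to 1.58 and 2.78 to 3.07, and 1.68 to 1.88 and 2.98 to 3.28, in the same order. Replicate numbers did not pair the samples throughout, with correlations of same-numbered libraries from -0.284 to 0.493. The same number was the best partner for replicate 1 in each comparison. It was also the best for replicate 2 in the direct comparison, where the 2 correlations were 0.493 and 0.375. With the number as a replicate block Pax6 had 1.51 and 1.81 against control. That block gave 2280, 5702 and 564 genes called in BAF155 cKO and the libraries labelled Pax6 cKO against control and in the direct comparison. In BAF155 cKO, Immp1l lost its call with limma-voom (0.56), with the 8 libraries alone (0.59) and with lane 1 alone (0.49); leaving out 1 library gave 0.47 to 0.72. Dnajc24 in BAF155 cKO was called with RLE and with DESeq2 (0.32 each), library totals (0.38), the 1 CPM filter (0.34) and female controls (0.39); leaving out 1 library gave 0.25 to 0.39. Against male controls Dnajc24 in the libraries labelled Pax6 cKO lost its call (0.36). Elp4 in BAF155 cKO, never called, was 0 with no filter (just below 0 unrounded), -0.13 with female controls and -0.01 with lane 3 alone, and -0.08 to 0.09 with 1 library left out. Rcn1 in BAF155 cKO, never called, was -0.07 with female controls and -0.04 to 0.11 with 1 library left out. The causes were not tested.

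The number of genes called in BAF155 cKO against control was 2246, and 1035 with the 8 libraries alone, 4294 with female controls and 682 with lane 1 alone. It was 1324, 4073, 1001, 1164 and 1287 without BAF155 cKO replicate 1, 2 or 4 or control replicate 3 or 4 in turn, a range of 1001 to 4073 over the 8 libraries left out. The count for the libraries labelled Pax6 cKO was 5866, and 1375 with male controls and 3825 without control replicate 3 (range 3825 to 6601). In the direct comparison it was 711, and 1339 with DESeq2, 470 with lane 1 and 209 with lane 3, with a range of 307 to 786 when 1 library was left out; every library but BAF155 cKO replicate 4 moved it by over 1.5 times. With library totals alone 55.5% of the calls in BAF155 cKO were higher, against 44.4% with TMM. Within 0.5 Mb of Pax6, 6 genes were called in the libraries labelled Pax6 cKO, against 12 within 1.5 Mb. The log2 Elp4 to Immp1l difference in the libraries labelled Pax6 cKO was -0.48 against male controls alone. The Elp4 to Immp1l ratio, and the same-sex comparisons for the neighbours and lists, were added after seeing the data.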

Other observations

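Of the 20 genes tested within 1.5 Mb of Pax6, 6 differed between BAF155 cKO and the libraries labelled Pax6 cKO at an unadjusted p under 0.05, none after adjustment in edgeR's quasi-likelihood test, none in limma-voom and 1 in DESeq2. The list of 8 cortical projection neuron genes had 6 lower in BAF155 cKO and 7 lower in the libraries labelled Pax6 cKO, none higher. Over all genes, 7.56% were called lower and 13.6% either way in BAF155 cKO, and 18.9% and 35.5% in the libraries labelled Pax6 cKO. Of 5 microglia genes 1 was lower in BAF155 cKO, and none was called in the libraries labelled Pax6 cKO by edgeR's quasi-likelihood test, DESeq2 or limma-voom or at an unadjusted p under 0.05. Of 5 endothelium genes none was called in BAF155 cKO by the same 3 tools or unadjusted, and 1 was higher in the libraries labelled Pax6 cKO. Of 6 erythroid genes 1 was higher in BAF155 cKO and 2 in the libraries labelled Pax6 cKO, and of 4 tested meninges genes 1 in each.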
